A study of Homo sapiens with 120 samples.

Results

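The libraries described here are those of cells that lack Dicer and received long double-stranded RNA (dsRNA) or no dsRNA. They are the 12 libraries labelled as Dicer knock-out in the second experiment, of 120 libraries in the series, and were taken by their labels alone. The cells are HEK293T, a human embryonic kidney line. All of them, the mock-transfected controls included, carry a knock-out of PKR, the kinase activated by dsRNA, and the Dicer knock-out was made on that background. Whether the Dicer knock-out line is a single clone is not given in the sources used here. Cells were transfected by lipofection with either no dsRNA (mock) or 1 of 2 long dsRNAs labelled dsGFPc and dsGFPd. Small RNA was sequenced in 2 fractions, total RNA and the RNA bound by Ago proteins, which were isolated by Ago affinity purification with peptides (Ago pulldown). Each of these 6 groups had 2 libraries, so that each fraction held 2 mock and 4 dsRNA libraries. The comparison asks how the remaining miRNA reads respond to dsRNA when the enzyme that cuts both dsRNA and miRNA precursors is missing. The 36 libraries of the 3 lines of that experiment that keep Dicer (parental, Ago2ko and Ago1ko_Ago2ko) were used only to test where the response differs.

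MicroRNAs (miRNAs) are cut from hairpins in primary transcripts by Drosha. Dicer then removes the loop and leaves a duplex of the arm at the 5′ end (5p) and the arm at the 3′ end (3p), 1 of which is kept as guide in an Ago protein. The arm that is usually kept is called the guide, and the other the passenger. Cells without Dicer hold few mature miRNAs, and an entry can also collect fragments of precursors or of other RNAs that overlap it. In vertebrate cells long dsRNA is a signal of viral infection that switches on interferon and, through it, host genes such as ZC3HAV1 (the antiviral protein ZAP) and HLA-B (antigen presentation).

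Hairpins and mature strands that carry the results are shown from RefSeq (GRCh38.p14), since most of what follows turns on which arm of a hairpin was read. Of 176 names looked up, 161 were matched to a mature strand that was used. The first pair of lines gives the hairpins that lie within the spans of interferon-induced host genes, with the mature arms in capitals. MIR10399 is on chromosome 7, 139044100 to 139044157, minus strand, within the span of ZC3HAV1, and MIR6891 is on chromosome 6, 31355224 to 31355316, minus strand, within the span of HLA-B. The MIR6891 hairpin begins with gu and ends with ag.
MIR10399: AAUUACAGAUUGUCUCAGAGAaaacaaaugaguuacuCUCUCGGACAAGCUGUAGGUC
MIR6891: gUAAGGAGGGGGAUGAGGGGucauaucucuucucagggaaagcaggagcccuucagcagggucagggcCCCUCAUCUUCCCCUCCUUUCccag
The next lines give mature strands that were higher with dsRNA, with the seed (bases 2 to 8, the main contact with targets) in capitals.
miR-10399-5p: aAUUACAGauugucucagaga
miR-10399-3p: cUCUCGGAcaagcuguagguc
miR-6891-5p: uAAGGAGGgggaugagggg
miR-20a-5p: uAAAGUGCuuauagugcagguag
miR-34a-5p: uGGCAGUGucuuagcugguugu
miR-424-5p: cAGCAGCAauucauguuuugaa
miR-31-5p: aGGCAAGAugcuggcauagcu
miR-21-5p: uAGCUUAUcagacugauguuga
miR-182-5p: uUUGGCAAugguagaacucacacu
miR-181a-5p: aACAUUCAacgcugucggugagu
The last lines give strands that were lower with dsRNA, among them both arms of MIR92A1 and MIR25, whose 3p arms share the seed AUUGCAC.
miR-92a-1-5p: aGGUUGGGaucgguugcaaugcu
miR-92a-3p: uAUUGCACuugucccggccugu
miR-25-5p: aGGCGGAGacuugggcaauug
miR-25-3p: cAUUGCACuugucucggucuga
miR-125b-2-3p: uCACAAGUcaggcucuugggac
miR-22-3p: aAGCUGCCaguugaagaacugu
miR-1260b: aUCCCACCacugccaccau

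Libraries from cells given dsRNA held more miRNA reads than mock libraries. In total RNA the mock libraries had 39916 and 68253 miRNA reads, the dsGFPc libraries 180337 and 161124, and the dsGFPd libraries 166599 and 168239. In Ago pulldown the mock libraries had 83321 and 47006, the dsGFPc libraries 539072 and 232875, and the dsGFPd libraries 593510 and 161963. The 8 dsRNA libraries were all above the mock libraries of their fraction. The mean was 4.14-fold higher over both fractions (log2 difference 2.05). An exact permutation test within fraction, two-sided, gave p = 0.00444, which is the smallest that its 225 arrangements allow. This test takes the libraries of the 2 fractions as independent, which is not known. If they share cultures, this p-value overstates the evidence. Leaving out 1 library at a time gave log2 differences of 1.84 to 2.26. The lines that keep Dicer had 910155 to 7167395 miRNA reads per library, so every value below rests on shallower libraries than those. How many reads each library held besides miRNA reads, and how much RNA went into it, was not analysed here.

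Net of losses in other entries, the extra reads were almost all from a few 5p strands. In total RNA the reads with a 3p name were 9128 and 17309 in mock and 6094 to 11113 with dsRNA, whereas those with a 5p name were 26108 and 45636 in mock and 146928 to 166118 with dsRNA. In Ago pulldown the 3p reads were 18936 and 10782 in mock and 6705 to 19793 with dsRNA, and the 5p reads 62853 and 34827 in mock and 152074 to 578720 with dsRNA. Thus 5p names took 65.4% and 66.9% of miRNA reads in mock total RNA and 91.2% to 94.9% with dsRNA, and 74.1% and 75.4% in mock pulldown against 93.9% to 97.5%. This split by arm was noticed after the values were seen and is a description without a test. In the lines that keep Dicer the 5p share was 61.2% to 70.9% in mock and 60.9% to 71.3% with dsRNA in total RNA.

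A set of 10 entries accounted for 97.7% of the extra reads in total RNA and 97.6% in pulldown. These are shares of the net gain, in which falls of some entries offset rises of others. In both fractions they were miR-182-5p, miR-10b-5p, miR-10a-5p, miR-21-5p, miR-181a-5p, miR-181b-5p, miR-20a-5p, miR-196b-5p, miR-423-5p and miR-26b-5p, all 5p strands. The strand miR-182-5p, of the miR-183 cluster, went from a mean of 1738 reads to 25448 in total RNA and from 7434.5 to 139732 in pulldown, 20.6% and 41.8% of the extra reads. All other entries together went from 34618 to 37302 reads in total RNA and from 38885 to 46633 in pulldown, 1.08-fold and 1.2-fold. Without the 10 entries that had most reads over the 12 libraries, the difference in reads was 1.21-fold (p = 0.436, the same exact permutation test). These entries were chosen by their reads in the same libraries, most of which received dsRNA. Leaving them out therefore favours a smaller difference, and this p-value does not show that other entries stayed the same. Reads were set to one sum per library for the tests. How results moved under other scalings is given for the counts of calls and for some of the named strands. A strand given without such values may have moved too.

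**Figure D1:**
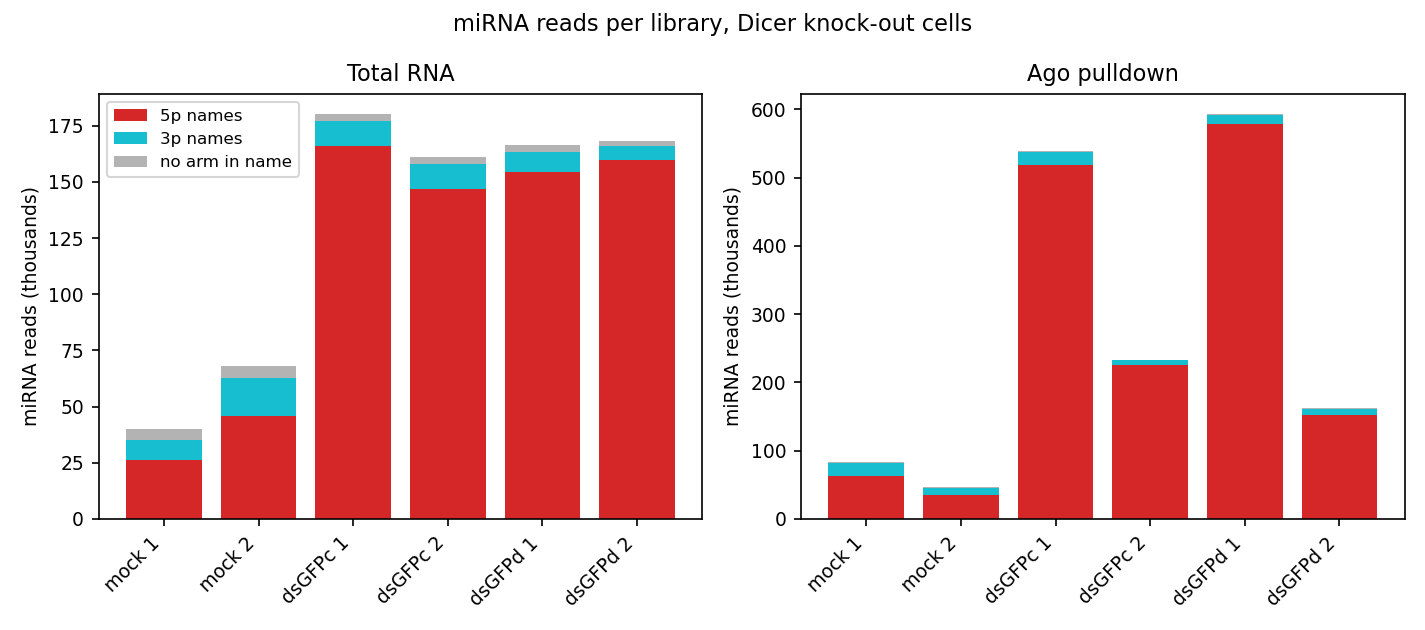
miRNA reads per Dicer knock-out library (vertical axis, in units of 1000 reads, from 0, with a scale of its own in each panel), in total RNA and Ago pulldown, split by the arm in the entry's name. The dsRNA libraries exceed the mock libraries in the 5p part, 146928 to 166118 against 26108 and 45636 in total RNA, and not in the 3p part.

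On the one-sum scale, dsRNA raised a small set of miRNAs, mostly 5p strands, and lowered a larger one. Among 274 miRNAs tested in total RNA, 32 rose (11.7%) and 72 fell (26.3%), 38% in all, at an adjusted p under 0.05 from limma with Benjamini-Hochberg adjustment over all miRNAs tested. In Ago pulldown 14 of 306 rose (4.58%) and 58 fell (19%), 23.5% in all. With both fractions in 1 fit, 32 of 289 rose (11.1%) and 121 fell (41.9%), 52.9% in all. Log2 changes are differences of log2(reads per 100000 + 5), which understates the change of entries near 0, and levels are reads per 100000 miRNA reads. Fewer cells with a miRNA and less of it per cell cannot be told apart in such bulk libraries. Whether the 2 libraries of each group stem from different cultures is not stated, so a p-value here reflects only library-to-library spread, which may be technical. Nor is it stated whether total RNA and pulldown libraries share a culture. The fit of both fractions takes them as independent and may count 1 culture more than once.

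The rises kept their call under other scalings more often than the falls. Of the 32 that rose in total RNA, 32 were still called with the authors' deposited scaling, 32 with edgeR, 32 with DESeq2 and 31 after quantile normalization. Of the 72 that fell, 17, 24, 30 and 40 were, so that quantile normalization kept more than it lost. The split of higher and lower calls in total RNA became 46 and 17 with deposited scaling, 44 and 25 when the 10 entries with most reads were left out of the sum, 41 and 41 after quantile normalization, 45 and 34 with edgeR and 50 and 38 with DESeq2. In pulldown it became 31 and 5, 32 and 7, 29 and 18, 26 and 12, and 38 and 11, and for both fractions 52 and 19, 57 and 11, 49 and 43, 50 and 15, and 58 and 42, in the same order. The median change of all miRNAs tested was -0.91 in total RNA, -0.75 in pulldown and -0.95 over both on the one-sum scale, against -0.17, 0.22 and -0.12 with deposited scaling. Setting dsGFPd alone against mock, with the dsGFPc libraries kept in the fit, gave 44 calls in pulldown. The number of pulldown calls also moved with single libraries. Leaving out dsGFPc replicate 1, or dsGFPc replicate 2, removed every limma call. Fewer calls remained without dsGFPd replicate 1 or without mock replicate 2. Each of these fits leaves 1 library in a group. In total RNA the count was 67 without dsGFPc replicate 1.

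Of the risers, 28 of 32 in total RNA (87.5%) and 13 of 14 in pulldown (92.9%) were 5p strands, whereas 51.1% and 54.9% of the miRNAs tested were. Of those that fell, 38.9% and 27.6% were 5p strands. The risers that were not 5p in total RNA were miR-10399-3p, miR-34a-3p, miR-1246 and miR-3609, and miR-10399-3p was the only one in pulldown. A first base U, which Ago proteins favour, stood in 53.3% of the total RNA risers with a RefSeq sequence (n = 30) and 39.7% of all tested (n = 247), and their mean GC content was 46% against 51.5%. In pulldown these were 57.1% (n = 14) against 42.8% (n = 276) and 47.2% against 50.9%. These shares are descriptions with no test. Both fractions called 12 miRNAs higher, 37.5% of the total RNA risers and 85.7% of the pulldown risers, and 32 lower, 44.4% and 55.2%, among 208 tested in both.

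**Figure D2:**
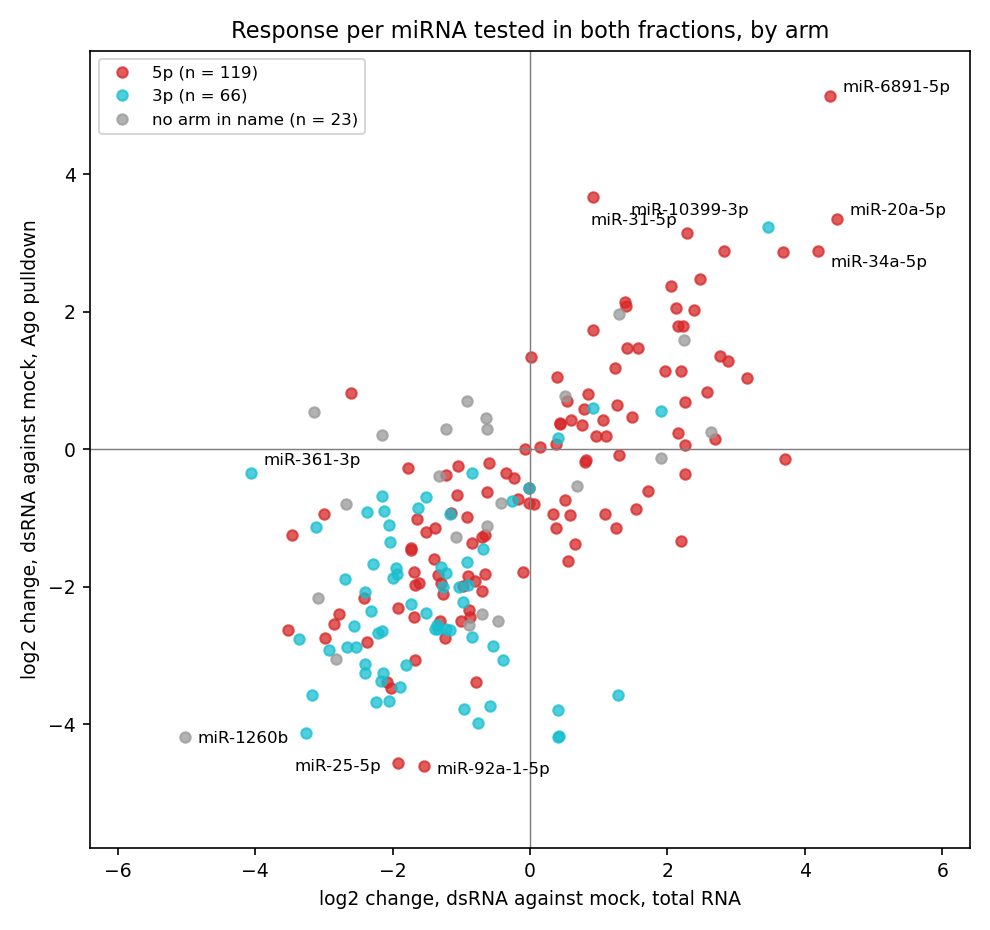
Log2 change of reads per 100000 + 5 with dsRNA against mock, total RNA (horizontal) and Ago pulldown (vertical), for the 208 miRNAs tested in both fractions of Dicer knock-out cells, coloured by arm. Of 66 3p entries, 58 lie below 0 in both fractions and 4 above it, whereas of 119 5p entries 55 lie below and 45 above.

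miRNAs from interferon-induced host genes gave some of the largest rises. The list held 6 strands (both arms of MIR10399, MIR6891 and of MIR3614 in TRIM25), of which 3 had enough reads to be tested. In total RNA 3 rose and in pulldown 3, beside 11.7% and 4.58% of all miRNAs tested. Their median log2 change was 3.68 and 3.23, beside -0.91 and -0.75 over all miRNAs tested. The list was chosen with earlier results of these data known. All its members together had 1 to 7 reads per mock library in total RNA and 3 to 11 in pulldown. With dsRNA they had 294 to 648 and 355 to 3079. The 3 strands thus passed the filter through the dsRNA libraries. A fall could hardly have been seen for them, so their count of rises is no support beyond the single values. The strand miR-6891-5p, from HLA-B, had 0 and 0 reads in mock total RNA, 170 and 223 with dsGFPc and 92 and 216 with dsGFPd. In pulldown it had 8 and 0 reads in mock, 1543 and 1026 with dsGFPc and 1934 and 300 with dsGFPd. Every dsRNA library thus lay above every mock library of its fraction, as for 16.4% of all miRNAs tested in total RNA and 8.17% in pulldown. The level in total RNA was 104 ± 37.7 (SD, n = 4) with dsRNA, at least 37.5-fold higher than a floor of 3 reads over the mock group (2.77 per 100000). In pulldown it was 309.5 ± 106 against 4.8 ± 6.79 (SD, n = 2), and the log2 change was 5.14 (SE 0.70, limma adjusted p = 0.00046).

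Both arms of MIR10399 rose, in both fractions, although their pulldown calls were lost in most fits that left out 1 library. The level of miR-10399-3p in total RNA was 2.51 and 7.33 in mock, 72.6 and 227.8 with dsGFPc and 62.4 and 102 with dsGFPd. In pulldown it was 0 and 4.26 in mock, 109.8 and 36.9 with dsGFPc and 127.9 and 21.0 with dsGFPd. The log2 change was 3.47 (SE 0.60) in total RNA and 3.23 (SE 0.94) in pulldown, with limma adjusted p = 0.0017 and 0.0221. Its partner miR-10399-5p had 0 and 1 reads in mock total RNA against 58 to 196 with dsRNA, and 2 and 0 in mock pulldown against 21 to 386. Its log2 change was 3.68 in total RNA and 2.87 in pulldown, so the arms differed by 0.21 and -0.36. By contrast miR-3614-5p, from TRIM25, had no more than 27 reads in any library and was not tested in these fits.

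Strands abundant in these cells made up the next group. The guide miR-21-5p, which inflammatory signals raise in many cells and which lies within the span of VMP1, had levels of 2869 and 1281 in mock total RNA, 13350 and 7834 with dsGFPc and 11340 and 8386 with dsGFPd. In pulldown it had 1751 and 1374 in mock, 9882 and 4840 with dsGFPc and 8929 and 3769 with dsGFPd. All dsRNA values were above all mock values, as for 16.4% and 8.17% of all miRNAs tested. The log2 changes were 2.38 (SE 0.36) and 2.03 (SE 0.59), with limma adjusted p = 0.000894 and 0.0222. The pulldown call was lost in most fits that left out 1 library. The passenger miR-21-3p went the other way in pulldown, from 388.9 and 497.8 in mock to 29.5 to 76.4 with dsRNA. It fell by 3.06 on the one-sum scale (adjusted p = 0.00539), a call that 0 of the 5 other scalings and tools made, with changes of -1.42 to -0.96. In total RNA miR-21-3p changed by -0.39, which did not pass the test, and the sign turned under the other scalings and tools (0.69 to 0.94).

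The level of miR-182-5p was 3307 and 3159 in mock total RNA and 13690 to 16370 with dsRNA, and 10390 and 13220 in mock pulldown and 29470 to 56670 with dsRNA, where it was the most abundant entry. Its log2 change was 2.22 (SE 0.20, adjusted p = 6.41e-05) and 1.79 (SE 0.55, adjusted p = 0.0272). Of the miR-181 family, which shares the seed ACAUUCA, miR-181a-5p rose by 2.25 and miR-181b-5p by 2.76 in total RNA, whereas their pulldown changes of 0.69 and 1.36 did not pass the test (adjusted p = 0.485 and 0.092). The strand miR-423-5p rose by 2.13 and 2.06, while its partner miR-423-3p fell by 1.51 and 2.38 on the one-sum scale. The HOX-cluster strands miR-10a-5p and miR-10b-5p, which hold many of the reads in every library, had log2 changes of -0.35 and 0.44 in total RNA and -0.35 and 0.37 in pulldown that did not pass the test. For miR-10a-5p the sign depended on scaling: leaving the 10 entries with most reads out of the sum gave 1.03 in total RNA, which passed the test. The pulldown control miR-16-5p changed by 0.75 and 0.35 (adjusted p = 0.154 and 0.69).

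Another large rise was that of miR-20a-5p, a growth-promoting member of the miR-17-92 cluster. Its level was 135 and 398.5 in mock total RNA, 4306 and 3217 with dsGFPc and 6490 and 8621 with dsGFPd, and 80.4 and 55.3 in mock pulldown, 992.8 and 564 with dsGFPc and 1013 and 492.7 with dsGFPd. The groups did not overlap in either fraction, with dsRNA above mock as for 16.4% and 8.17% of all miRNAs tested. The log2 changes were 4.47 (SE 0.41, limma adjusted p = 9.12e-05) and 3.35 (SE 0.59, adjusted p = 0.00207). In reads it went from a mean of 163 to 9566.5 in total RNA. Other strands with its seed, AAAGUGC, gave smaller values in total RNA: miR-93-5p rose by 1.96 (adjusted p = 0.0492), and miR-17-5p and miR-106b-5p had changes of 0.80 and 0.02 that did not pass the test. The difference between these family members was not tested. Of the 9 guides tested in the list of the miR-17-92 cluster and its paralogs, 2 rose and 3 fell in total RNA (11.7% and 26.3% of all tested), and 1 rose and 2 fell in pulldown (4.58% and 19%), with medians of 0.02 and -0.18. These counts are near the shares over all miRNAs tested.

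Scarcer strands also rose. The p53 target miR-34a-5p, which restrains the cell cycle, had levels of 7.52 and 71.8 in mock total RNA, 288.9 and 326.5 with dsGFPc and 609 and 1726 with dsGFPd, and 1.2 and 4.26 in mock pulldown against 29.0 to 72.8. It rose by 4.19 (SE 0.69, adjusted p = 0.00158) and 2.89 (SE 0.85, adjusted p = 0.0223). Its partner miR-34a-3p, without a read in mock total RNA and at 14 per 100000 with dsRNA (at least 5.04-fold higher than the floor), rose by 1.90 (adjusted p = 0.039). Of the other p53-linked strands, miR-192-5p fell in both fractions on the one-sum scale, by 2.78 and 2.40. The strand miR-34c-5p fell by 2.60 in total RNA and changed by 0.82 in pulldown (adjusted p = 0.475), so the list did not move one way. The strand miR-424-5p, which shares its seed AGCAGCA with miR-16-5p, had 0 and 2 reads in mock total RNA and 40 to 123 with dsRNA, and 0 and 1 in mock pulldown against 72 to 327, and rose by 2.82 and 2.88. The strand miR-31-5p rose by 2.28 and 3.15, from a pulldown level of 9.06 ± 0.772 (SD, n = 2) to 122 ± 27.6 (SD, n = 4), and miR-218-5p rose by 2.05 and 2.37. The strand miR-504-5p had 0 reads in all 4 mock libraries and a level of 23.3 with dsRNA in total RNA and 24.6 in pulldown. These are at least 8.39-fold and 10.7-fold above the floors of 2.77 and 2.3. Strands without a mock read passed the filter through the dsRNA libraries alone, so a fall could not have been seen for them. In pulldown the calls of miR-182-5p, miR-424-5p and miR-504-5p were lost whichever of the 6 libraries was left out. Those of miR-21-5p, miR-34a-5p, miR-218-5p and both arms of MIR10399 were lost in most of these fits. The calls of miR-20a-5p, miR-31-5p and miR-6891-5p held in most of them. Each of these fits leaves 1 library in a group. In the fit of both fractions miR-182-5p and miR-424-5p kept their call in 12 of 12 fits that left out 1 library. That fit takes the libraries of the 2 fractions as independent, which is not known.

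**Figure D3:**
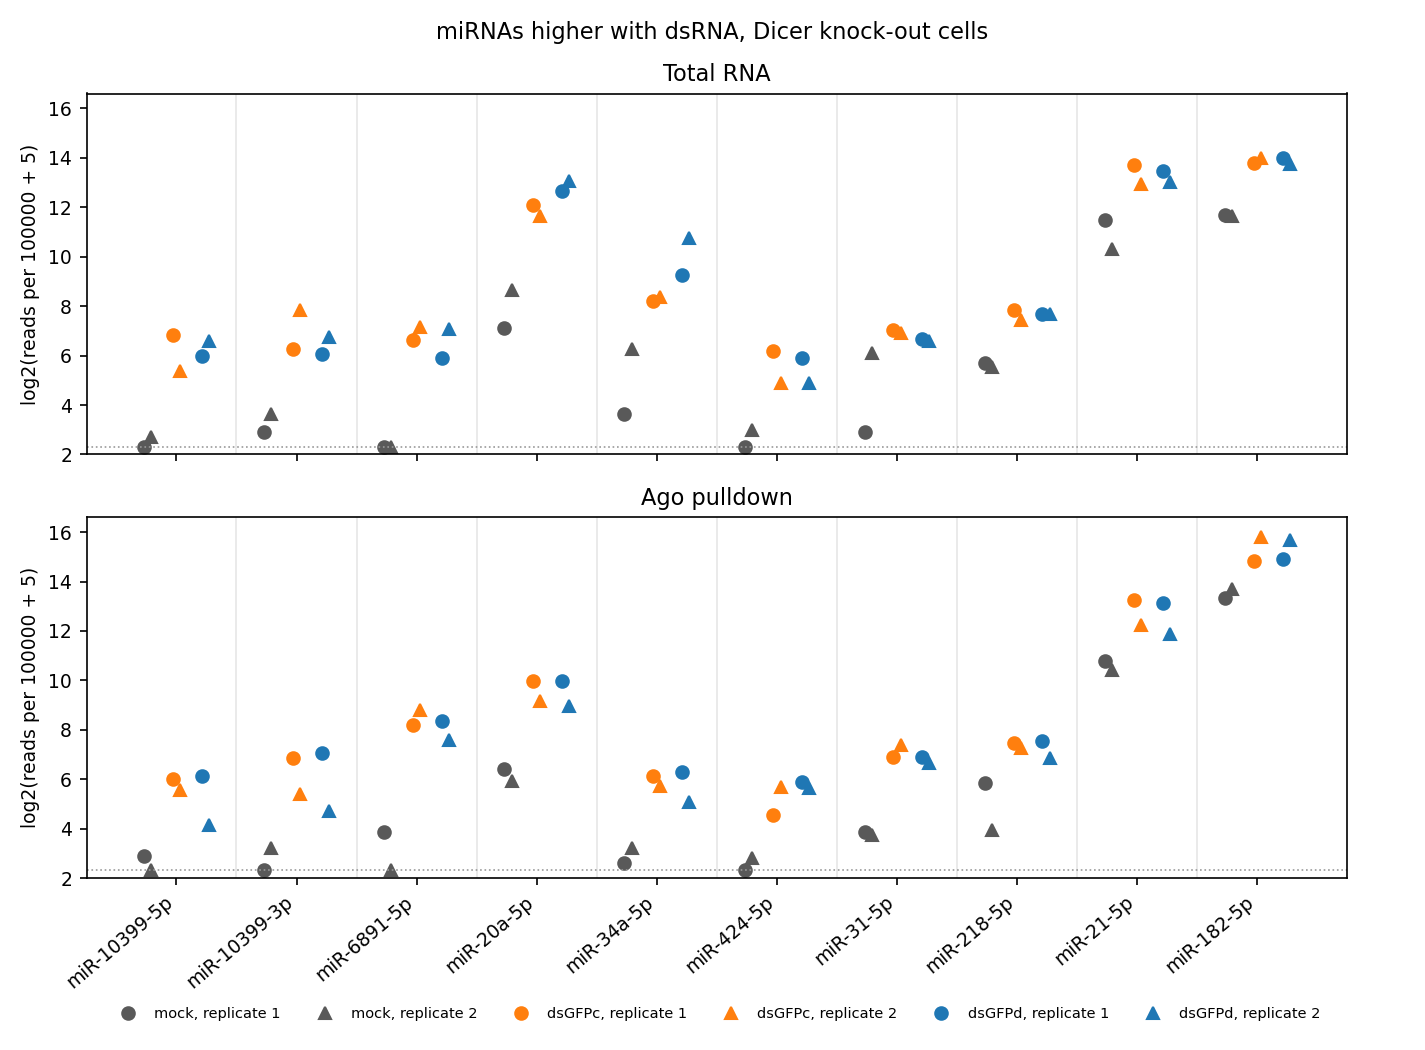
Levels of 10 strands called higher with dsRNA in both fractions, as log2(reads per 100000 + 5) (vertical axis), in each Dicer knock-out library; the dotted line marks 0 reads. For each strand the 4 dsRNA libraries lie above both mock libraries, as for miR-20a-5p in total RNA at 3217 to 8621 against 135 and 398.5 per 100000. The strands were chosen by their calls in these same libraries. Of all miRNAs tested, 16.4% in total RNA and 8.17% in pulldown lie above mock in this way.

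The entry miR-1260b fell under every scaling and tool tried, in both fractions. It belongs to the list of entries that overlap other small RNAs, and it was scarce in the lines that keep Dicer (2.18 to 9.12 per 100000 in their mock total RNA). Without Dicer its level was 1012 and 674 in mock total RNA and 13.8 to 31.1 with dsRNA, and 1009 and 2015 in mock pulldown and 63.6 to 87.2 with dsRNA. It fell by 5.02 (SE 0.44, adjusted p = 6.41e-05) and 4.19 (SE 0.59, adjusted p = 0.00046), and under the other scalings and tools its change lay between -4.30 and -3.70 in total RNA and between -2.86 and -2.05 in pulldown. In reads it went from 404 and 460 in mock total RNA to 23 to 56. The entry miR-7974 fell by 4.06 in total RNA, from 4499 and 2990 to 133 to 282.8, and had 0 reads in mock pulldown and 25 in 1 dsRNA library. Of 9 tested entries that overlap other small RNAs, 5 fell in total RNA and 3 rose (26.3% and 11.7% of all miRNAs tested), among them miR-664a-5p by 3.71 and miR-1246 by 2.63, while in pulldown 1 of 8 fell (19% of all).

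Not all 5p strands rose, and those of MIR92A1 and MIR25 fell in pulldown from high levels. The passenger miR-92a-1-5p had levels of 9438 and 9773 in mock pulldown, 430.6 and 307 with dsGFPc and 130.9 and 1310 with dsGFPd. The passenger miR-25-5p, from a hairpin within the span of MCM7, had 8146 and 6603 in mock pulldown, 340 and 202.7 with dsGFPc and 98.6 and 1251 with dsGFPd. The mock values lay far above all dsRNA values (36.9% of all tested in pulldown were lower without overlap), with 1 dsGFPd library closer to mock than the rest. They fell by 4.61 (SE 0.75, adjusted p = 0.00193) and 4.56 (SE 0.80, adjusted p = 0.00207). Under the other scalings and tools their changes were smaller but still called, at -3.84 to -2.45 and -3.77 to -2.41. In mock pulldown miR-92a-1-5p had 7864 and 4594 reads and with dsRNA 715 to 2321, while the guide miR-92a-3p had 4167 and 3047 reads in mock and 1925 to 4421 with dsRNA. On the one-sum scale miR-92a-3p fell by 2.67 in total RNA and by 2.87 in pulldown. The fall of miR-25-3p was called in both fractions too (changes of -2.41 and -3.26), on the same scale. Of the 58 pulldown falls on that scale, deposited scaling kept 5 and quantile normalization 18.

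Other strands that fell in both fractions were mostly 3p. The passenger miR-125b-2-3p had levels of 751.6 and 388 in mock total RNA and 29.7 to 103 with dsRNA, and 690 and 510.6 in mock pulldown and 4.72 to 55.0 with dsRNA. It fell by 3.26 and 4.13, and it was still called under each of the 5 other scalings and tools, with changes of -2.41 to -1.91 and -2.66 to -2.09. The guide miR-22-3p had levels of 606 and 591.9 in mock total RNA and 27.9 to 95.0 with dsRNA and fell by 3.36 (SE 0.40, adjusted p = 0.000262). It also fell by 2.76 in pulldown. Under the other scalings and tools its change in total RNA was -2.3 to -2.01, still called. The guide miR-125a-5p, 1 of the 5p strands that fell, went down by 3.52 in total RNA (adjusted p = 0.000636) and 2.63 in pulldown.

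**Figure D4:**
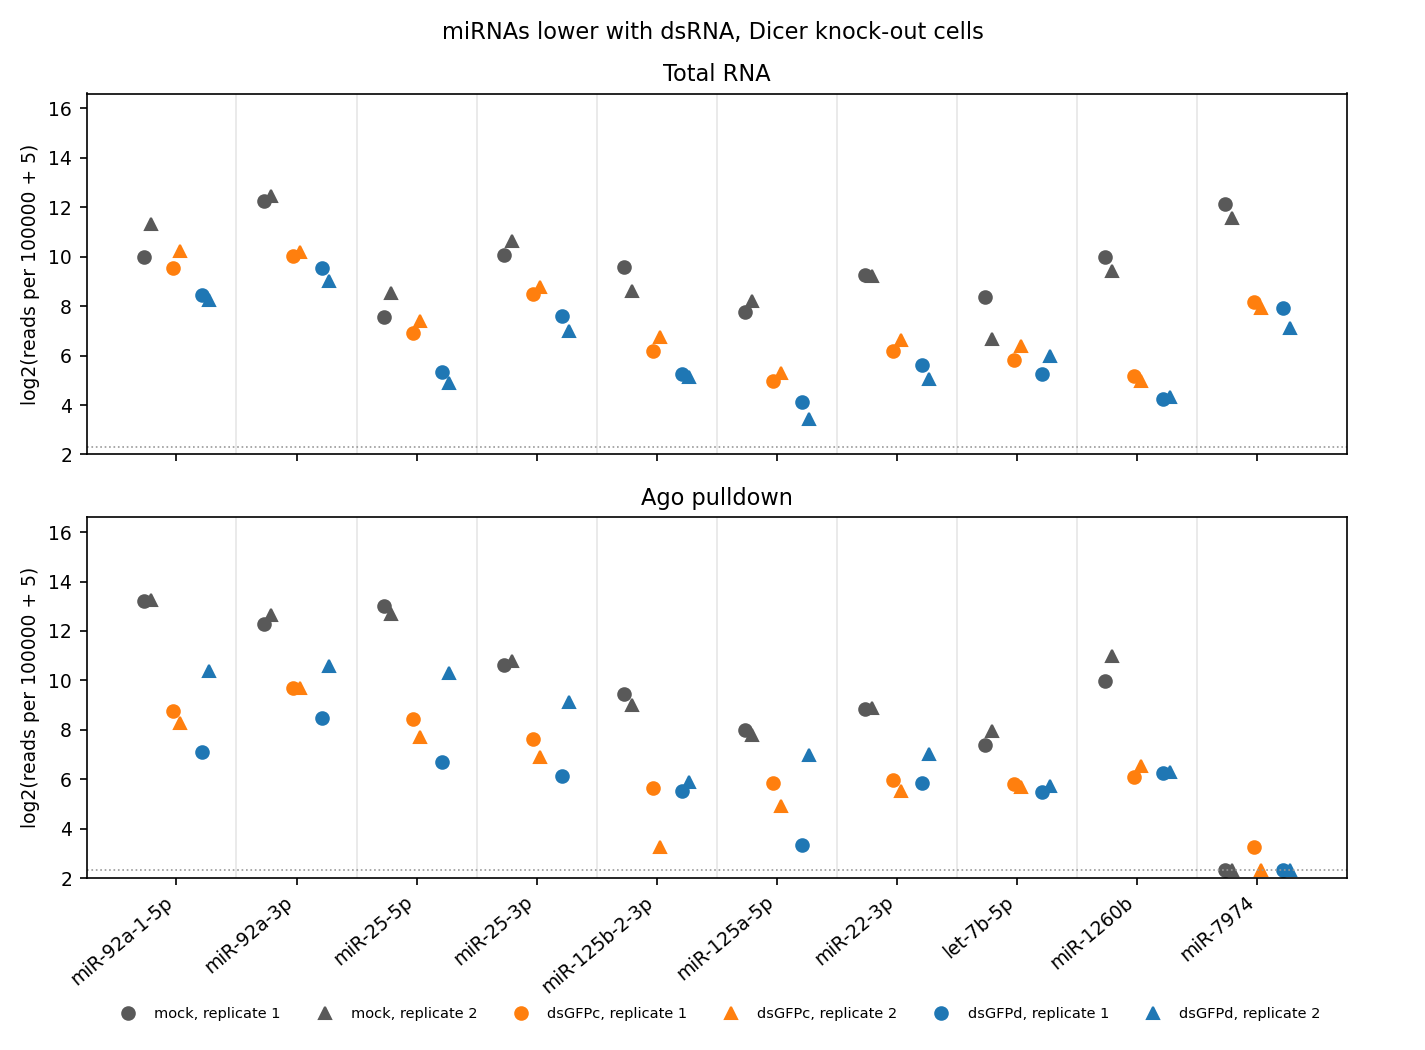
Levels of 10 entries called lower with dsRNA in at least 1 fraction on the one-sum scale, as log2(reads per 100000 + 5) (vertical axis), in each Dicer knock-out library; the dotted line marks 0 reads. miR-92a-1-5p and miR-25-5p are at 6603 to 9773 per 100000 in mock pulldown and at 98.6 to 1310 with dsRNA, and miR-7974 has reads mainly in total RNA.

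The calls in the lists of abundant families rested on the scaling. Of the 9 let-7 guides, which restrain growth genes, 5 fell in total RNA and 4 in pulldown (26.3% and 19% of all tested), with medians of -1.29 and -1.94 beside -0.91 and -0.75 over all. With deposited scaling 0 of the 9 were called in either fraction, and the medians were -0.17 and -0.27. The summed let-7 reads were 1150 and 2888 in mock total RNA and 2190 to 2836 with dsRNA. Of 24 other abundant canonical strands, 7 rose and 7 fell in total RNA (11.7% and 26.3% of all tested) and 3 rose and 5 fell in pulldown (4.58% and 19% of all tested), against 10 and 2, and 9 and 0, with deposited scaling. The Drosha-independent miR-320 and miR-484 are made from capped or short precursors. Of 3 tested members of their list, 0 rose and 1 fell in total RNA (11.7% and 26.3% of all tested). In pulldown 2 fell (19% of all tested), and none was called with deposited scaling. The list of mirtrons, whose precursors are spliced introns, held 20 strands, and those of MIR6891 were not among them. It gave 0 calls of 2 and 4 tested, while 38% and 23.5% of all tested were called. The strand miR-451a, which Ago2 cuts without Dicer, had 1 read in all 12 libraries. Inflammation-linked strands gave 1 rise of 7 and of 6 tested, miR-21-5p (11.7% and 4.58% of all tested rose). They gave 1 fall in pulldown (19% of all tested fell). The classical responder miR-155-5p had at most 18 reads in any library.

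Markers of other cell types were low, and a few fell with dsRNA in total RNA. Of 14 markers, 4 were tested in total RNA and 3 fell (26.3% of all miRNAs tested fell), miR-122-5p of liver by 2.98, miR-143-3p of fibroblast and smooth muscle by 2.37 and miR-142-5p of blood cells by 2.32. With deposited scaling 1 was called. Their summed level was 319 to 326 per 100000 in mock total RNA and 36.9 to 40.5 with dsRNA, 130 to 218 and 61 to 73 reads, and 7 of the 14 had no read in mock and 7 none with dsRNA. In pulldown 9 of 14 had no read in mock, the summed level was 172 to 668.5 in mock and 11.1 to 169 with dsRNA, and 0 of 3 tested passed. Their part in the falls above was not tested. Of strands abundant in HEK293T, miR-10a-5p, miR-10b-5p and miR-92a-3p were read in all 12 libraries.

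Within a hairpin, the 5p arm usually had the higher change. Both arms were tested for 45 hairpins in total RNA, and 39 of these (86.7%) had a higher log2 change for the 5p than for the 3p arm, with medians of 0.44 and -1.51. In pulldown 41 of 58 (70.7%) did, with medians of -0.46 and -1.93. This ratio of arms does not depend on the sum a library is set to, except through the added 5. For miR-20a the arms were 4.47 and -0.84 in total RNA, for miR-424 2.82 and -0.58, and for miR-21 2.38 and -0.39. In pulldown miR-182 had 1.79 and -3.41 and miR-424 2.88 and -3.74. The MIR25 arms went against this in pulldown (-4.56 and -3.26), as both fell. These counts were added after the arm split was noticed and carry no test.

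Few responses differed between the fractions, and those calls were not stable. The response in pulldown minus that in total RNA was called for 14 of 289 miRNAs (4.84%), 7 higher (2.42%) and 7 lower (2.42%). It was 0 with edgeR, with deposited scaling, after quantile normalization and with a pseudocount of 1, where 21, 20, 38 and 44 had an unadjusted p under 0.05. When single libraries were left out it was 0 to 3, except 34 and 23 without mock replicate 2 of total RNA or of pulldown and 12 without dsGFPd pulldown replicate 2. Some of them have nothing to compare in pulldown: miR-1268a (2.70) had no read there, and miR-7974 (4.30) had 25 reads in 1 library and none in mock, so these values mainly mirror their falls in total RNA. For miR-196b-3p the difference was -4.85, as it fell by 3.57 in pulldown and changed by 1.28 in total RNA.

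The 2 dsRNAs gave no called difference. With dsGFPd against dsGFPc, limma called 0 of 274 miRNAs in total RNA (0%) and 0 of 306 in pulldown (0%), and 13 and 3 had an unadjusted p under 0.05. With edgeR the counts were also 0, with 14 and 9 at an unadjusted p under 0.05. The lowest p values in total RNA were those of miR-25-5p at -2.06 (SE 0.52), miR-25-3p at -1.34 (SE 0.40), miR-92a-1-5p at -1.54 (SE 0.48) and miR-3613-5p at 1.76 (SE 0.56), each with a limma adjusted p of 0.722. For miR-28-3p and miR-92a-3p the values were -1.57 and -0.83 (adjusted p = 0.987). For miR-20a-5p and miR-34a-5p the differences were 1.01 (SE 0.47) and 1.72 (SE 0.80), at an adjusted p of 0.987. With 2 libraries for each dsRNA these values do not show that the dsRNAs act alike.

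The response differed from that of the lines that keep Dicer for many of these miRNAs. The dsRNA response without Dicer minus the mean response of the 3 other lines was called for 150 of 676 miRNAs in total RNA (22.2%), 47 higher (6.95%) and 103 lower (15.2%), and for 105 of 797 in pulldown (13.2%), 21 higher (2.63%) and 84 lower (10.5%). The split moved with the scaling and the tool, 66 and 47 with deposited scaling, 68 and 51 with the 10 entries with most reads left out of the sum, 60 and 63 after quantile normalization and 23 and 111 with edgeR in total RNA, and 41 and 21, 55 and 15, 39 and 26, and 22 and 4 in pulldown. Of the main calls edgeR kept 21 of 47 higher and 79 of 103 lower in total RNA, and 7 of 21 and 3 of 84 in pulldown. In the parental line dsRNA itself gave 0 calls among 676 miRNAs in total RNA and 1 among 797 in pulldown in the same fits. Of the 32 miRNAs that rose without Dicer in total RNA, 0 were called higher in the parental line, 1 in Ago2ko and 3 in Ago1ko_Ago2ko. Over all 676 miRNAs, 0, 2 and 5 were called higher in these lines (0%, 0.296% and 0.74%). The median log2 change of the 32 was 0.14, 0.02 and 0.18 there. It was 2.27 without Dicer, where the 32 were selected for having risen.

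Among single strands, miR-20a-5p changed by 1.36, 0.81 and 0.62 in the parental, Ago2ko and Ago1ko_Ago2ko total RNA, and the difference from the Dicer knock-out was 3.54 (SE 0.55, limma adjusted p = 7.03e-05). For miR-182-5p the changes were -0.41, -0.24 and 0.10, and the difference was 2.40 (SE 0.37, adjusted p = 7.42e-05). The mock level of miR-182-5p in total RNA was 3159 and 3307 without Dicer and 1500 to 4270 in the lines that keep it, so that only the dsRNA libraries without Dicer, at 13690 to 16370, lay above that range. For miR-1260b the changes were -0.02, -0.12 and -0.17 and the difference -4.92 (SE 0.30, limma adjusted p = 3.47e-09). All lines share 1 spread per miRNA in these fits, although the Dicer knock-out libraries were shallower. Their SEs and p-values are therefore not those of the knock-out libraries alone. In the total RNA fit of the knock-out alone the SE was 0.44 for miR-1260b and 0.41 for miR-20a-5p, against 0.30 and 0.55 here.

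The miRNAs in interferon-induced host genes did not share 1 pattern across lines. The strand miR-10399-3p changed with dsRNA by 1.99, 2.74 and 2.39 on this scale in the parental, Ago2ko and Ago1ko_Ago2ko total RNA, and its difference from the 3.47 without Dicer, 1.10 (SE 0.58), did not pass the test (adjusted p = 0.219). The opposite arm miR-10399-5p changed there by 0.18, 0.86 and 0.51, and the difference was 3.17 (SE 0.39, adjusted p = 4.59e-06). Its level with dsRNA was 36 to 108.7 in total RNA without Dicer and at most 4.67 in the other lines. In pulldown its difference was 2.57, a call that turned to -0.19 with edgeR (adjusted p = 1) and with levels of at most 0.0167 in the mock pulldown of the other lines. The cause of that turn was not tested. For miR-6891-5p the changes were 0.30, 0.62 and 1.07, and the difference was 3.70 (SE 0.42, adjusted p = 2.49e-06). For miR-3614-5p the difference was negative, -1.90 (SE 0.39, adjusted p = 0.0011). Its changes were 0.58 in the parental line, 2.47 in Ago2ko, 2.19 in Ago1ko_Ago2ko and -0.15 without Dicer. Its mean level in total RNA without Dicer was only 0.73 in mock and 0.14 with dsRNA. The -0.15 is therefore a value near 0 reads and shows no fall. The difference mainly mirrors the rises in the lines that keep Dicer, which were not seen without it.

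**Figure D5:**
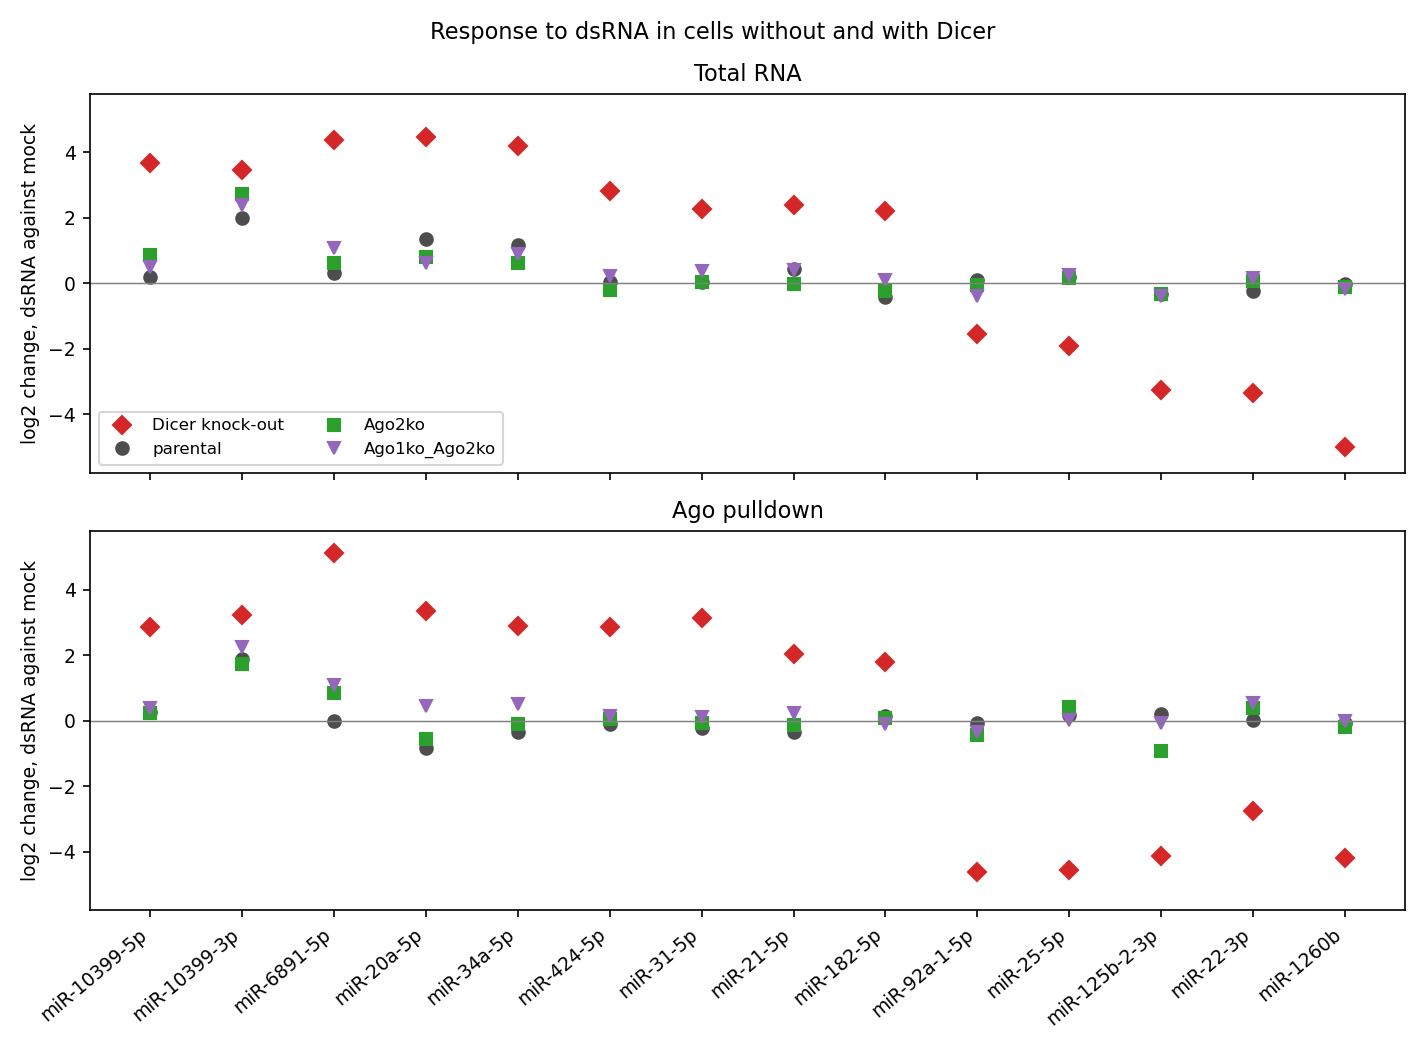
Log2 change of reads per 100000 + 5 with dsRNA against mock (vertical axis) for 14 strands, in the Dicer knock-out and in the 3 lines that keep Dicer, in total RNA and Ago pulldown. The Dicer knock-out values stand apart from the other lines for most strands, as for miR-182-5p in total RNA (2.22 against -0.41 to 0.10), but less so for miR-10399-3p (3.47 against 1.99 to 2.74).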

How the data were processed

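The 12 Dicer knock-out libraries of the second experiment were analysed, with the 36 libraries of the lines that keep Dicer for the test of the difference. STAR and GRCh38 are named by the submitters' processing notes, and versions and parameters are not given in the sources used here. The libraries were made with the Lexogen small RNA-Seq kit, per the labels. The authors deposited normalised counts per miRNA (a signal scale), not raw counts. Every value was a whole multiple, within 0.01 read, of the smallest non-zero value of its column (100% of values), which was 4.86 to 32.5 in these libraries, so whole reads were recovered. Of 2883 rows, 2652 with a miRNA name were kept and 231 set aside. The tables of the first experiment were not used, nor was a table named for the third experiment, which is identical to that of the second.

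Reads were set to 100000 per library and tested as log2(value + 5) with limma 3.58.1 (trend and robust; R 4.3.3) on miRNAs with a mean of at least 5 reads, with Benjamini-Hochberg adjustment over all tested and a threshold of 0.05. Both dsRNAs were pooled against mock, per fraction or with fraction as a stratum. In the fits of the difference from the lines that keep Dicer, all lines shared 1 spread per miRNA. Depth was 39916 to 593510 miRNA reads, and a group without reads was set to a floor of 3 reads over the group; these floors cover counting error only. The knock-out itself cannot be read from small RNA libraries. Alternatives were edgeR 4.0.16 and DESeq2 1.42.0 on recovered reads, deposited or quantile scaling, a sum less the 10 entries with most reads, pseudocounts of 1 and 20, no filter or at least 20 reads, 1 dsRNA alone, a replicate block and each library left out. The fits were tested on simulated data. Named miRNAs are those with the largest called changes and the members of the lists (interferon hosts, inflammation, p53, entries overlapping other small RNAs, Drosha- or Dicer-independent, mirtrons, let-7, miR-17-92, other abundant strands, markers of other cell types). Members and lists were chosen with earlier results of these data known.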

Additional observations from a re-analysis of the deposited data

Results flagged for a closer look

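A single value stood apart: in total RNA with dsRNA, miR-212-5p was at 2.77 reads per 100000 in dsGFPc replicate 1. The other dsRNA libraries of that fraction had no read of it, and 1 read of this library is 0.555 per 100000. The value is thus a handful of reads against none. This was 1 of 65 groups checked. Chance alone marks about 1 in 20 for continuous values, a rate that does not hold for a group mostly without reads.

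The dsRNA response differed between pulldown and total RNA by the interaction term in limma. The log2 differences, pulldown minus total RNA, were positive for miR-7974 (4.30), miR-361-3p (3.71) and miR-1268a (2.70). Of these, miR-1268a had no read in any pulldown library and miR-7974 none in mock pulldown, so their values mainly mirror the fall in total RNA and show no response in pulldown. The differences were negative for miR-196b-3p (-4.85), miR-374a-3p (-4.58), miR-30c-1-3p (-3.81) and miR-671-5p (-3.53). These calls were absent with edgeR and under the other scalings.

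The dsRNA response in total RNA differed between cells without Dicer and the lines that keep it, again by the interaction term. The log2 difference was positive for miR-6891-5p (3.70), miR-20a-5p (3.54), miR-664a-5p (3.33), miR-34a-5p (3.30), miR-10399-5p (3.17), miR-450a-5p (3.09), miR-19b-1-5p (3.09), miR-424-5p (2.80), miR-181b-5p (2.76) and miR-1296-5p (2.76). It was negative for miR-1260b (-4.92), miR-7974 (-4.35), miR-361-3p (-4.14), miR-625-3p (-3.42), miR-625-5p (-3.42), miR-125b-5p (-3.40), miR-22-3p (-3.36), miR-125a-5p (-3.29), miR-629-3p (-3.26) and miR-3917 (-3.22). The dsRNA response in pulldown differed between cells without Dicer and the lines that keep it, again by the interaction term. The log2 difference was positive for miR-6891-5p (4.49), miR-6740-5p (3.67), miR-20a-5p (3.66), miR-31-5p (3.21), miR-34a-5p (2.88), miR-424-5p (2.84), miR-218-5p (2.67), miR-10399-5p (2.57), miR-504-5p (2.46) and miR-6514-5p (2.18). It was negative for miR-25-5p (-4.77), miR-92a-1-5p (-4.32), miR-1260b (-4.10), miR-424-3p (-4.07), miR-374a-3p (-3.93), miR-28-3p (-3.92), miR-30c-1-3p (-3.91), miR-125b-2-3p (-3.86), miR-629-3p (-3.77) and miR-7976 (-3.77).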

How the results depend on the processing

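Among 117 called results for single miRNAs, 1090 values under other settings kept direction and call, 166 kept direction and lost the call, and 1 reversed; with single libraries left out, 1436 kept the call and 171 lost it. Counts of calls that moved by over 1.5 times follow, and their causes were not tested unless said. Dividing by deposited scaling gave 63 calls in total RNA, 36 in pulldown and 71 over both, against 104, 72 and 153. Leaving the 10 entries with most reads out of the sum gave 69, 39 and 68. Quantile normalization gave 47 in pulldown and 92 over both, edgeR 38 and 65, and DESeq2 100 over both. Without a filter there were 2 in pulldown and 78 over both, among more miRNAs tested. With dsGFPd alone set against mock, all libraries kept in the fit, there were 44 in pulldown, and with dsGFPc alone 91 over both. The difference between fractions (14 calls) gave 0 with a pseudocount of 1, 25 with 20, 0 with the reduced sum, edgeR, no filter, deposited scaling (added after seeing the data, as was quantile) and quantile normalization, and 4 with at least 20 reads. The difference from the lines that keep Dicer in pulldown (105) gave 26 with edgeR, 62 with deposited scaling and 65 with quantile normalization. The difference in miRNA reads was 0.27 without the 10 entries with most reads, which were chosen in these same libraries. Leaving out single libraries gave 67 to 155 calls in total RNA, 0 to 66 in pulldown, 104 to 143 over both, 0 to 34 between fractions, 0 to 2 and 0 to 0 between the dsRNAs in total RNA and pulldown, 135 to 197 and 87 to 128 against the lines that keep Dicer, and 1.84 to 2.26 for reads.

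Signs turned as follows (log2). In total RNA miR-10a-5p became 0.86 (deposited scaling), 1.03 (reduced sum), 1.04 (edgeR) and 0.86 (DESeq2), and miR-146b-5p 0.56, 0.69, 0.69 and 0.61, with 0.47 after quantile normalization. There miR-21-3p became 0.81, 0.88, 0.69 and 0.72, with 0.94 after quantile normalization, 0.23 with dsGFPc alone and, leaving out single libraries, -1.48 to 0.70. In pulldown miR-10a-5p became 1.47, 1.81, 1.45 and 1.63, and miR-146b-5p 1.18, 1.45, 1.05 and 1.19, with 1.26 after quantile normalization. Also in pulldown miR-132-3p became 0.26 (reduced sum), 0.43 (edgeR) and 0.39 (DESeq2), miR-132-5p 0.33 (reduced sum), 0.10 (dsGFPd alone) and -2.31 to 0.58 (single libraries left out), miR-10b-5p -0.64 (quantile) and miR-16-5p -0.15 to 0.85 (single libraries left out). Over both fractions miR-10a-5p became 1.16, 1.42, 1.39 and 1.12, miR-146b-5p 0.87, 1.07, 1.02 and 0.80, with 0.92 after quantile normalization, miR-10b-5p -0.03 (quantile) and miR-132-5p -0.17 (without mock total replicate 1). The difference of miR-10399-5p from the lines that keep Dicer in pulldown became -0.19 with edgeR.

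Replicate numbers showed little sign of pairing the libraries. For each miRNA, replicate 1 minus replicate 2 was taken within each transfection, and these differences were correlated between transfections. The correlations for mock and dsGFPc, mock and dsGFPd, and dsGFPc and dsGFPd were -0.02, 0.02 and 0.07 in total RNA. In pulldown they were 0.12, 0.14 and 0.01. With a replicate block 104 miRNAs were called in total RNA, 88 in pulldown, 150 over both and 11 between fractions. Mock libraries of 39916 to 83321 reads limit what can be seen of scarce miRNAs.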
